A study of Homo sapiens with 40 samples.

Results

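The glycolysis genes described here are PKM, ALDOA, ALDOC, GAPDH, ENO1, PGK1, TPI1, LDHA, LDHB and PGAM1. They were chosen by name, and each model whose gene identifier equals 1 of these symbols was taken from a catalogue of transcript models (spliced RNA structures given as exons and coding regions). All 10 genes had a model, out of 9460 genes in the catalogue, and together they held 15 of its 19972 models. The study set H9 cells, a long-established line of human embryonic stem cells (ESC), under control conditions beside neural progenitor cells (NPC) made from the same line by dual-SMAD inhibition. Cytosolic polyadenylated RNA was kept whole or separated by ribosome load into a monosome fraction, a light one with 2 to 4 ribosomes per RNA and a heavy polyribosome one with at least 5, which is called Frac-seq. Each of the 8 combinations of cell type and fraction had 2 long-read and 3 short-read libraries, 40 in all. The catalogue is labelled as long-read and carries no count, level or depth per library, so levels in ESC, NPC or any fraction were not analysed here and no test between them was made.

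Glycolysis splits glucose into pyruvate in the cytosol, with net gain of ATP and NADH. Aldolase (ALDOA, ALDOC) cleaves the hexose bisphosphate and triose phosphate isomerase (TPI1) interconverts the resulting trioses, after which GAPDH, PGK1, PGAM1, ENO1 and PKM carry the carbon to pyruvate and lactate dehydrogenase (LDHA, LDHB) interconverts pyruvate and lactate. Pluripotent cells are known for high glycolytic flux, and PKM and the aldolases are textbook examples of isoforms or paralogues that differ between tissues. PKM makes its M1 and M2 enzymes by including either of a pair of adjacent exons, M1 typical of muscle and brain and M2 of proliferating cells.

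PKM had 3 models, ALDOA, ALDOC and LDHA 2 each, and TPI1, GAPDH, PGK1, PGAM1, ENO1 and LDHB 1 each, so 4 of 10 had at least 2 models, near the 50.01% of all 9460 genes that did. Every one of the 15 models had a coding region, and the 15 models held 13 distinct coding regions. In 14 models the coding region ended in the last exon, and in 1 PKM model it ended upstream. The models had a median of 9 exons and 1689 nt, against 6 exons and 1537 nt over all 19972 models, coding or not. Their median coding region was 1095 nt, against 855 nt over the 17247 coding models.

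**Figure D1:**
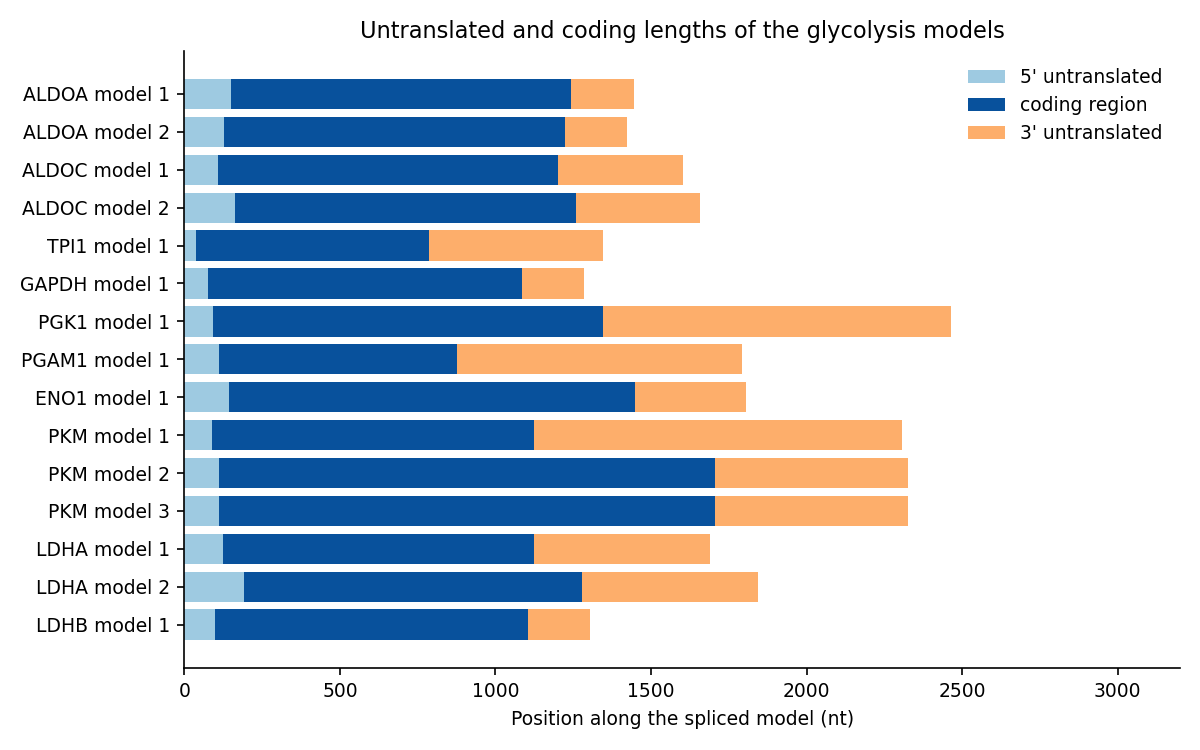
Length in nt of the 5' untranslated region, coding region and 3' untranslated region (x axis) of the 15 models (y axis, in pathway order with the pyruvate and lactate steps last). PKM model 1 has a coding region of 1035 nt where PKM models 2 and 3 have 1596 nt, and PGK1 is the longest model with 2464 nt.

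The starts of the models are shown with the sequence just upstream of them, because ALDOA and LDHA each had a pair of alternative first exons. The sequences are RefSeq's for GRCh38.p14, which gives windows around annotated gene starts, and all 10 genes matched by symbol, with 14 windows. No source used here names the build of the catalogue, but its positions fit that build: of 7389 genes matched by symbol, chromosome and strand, 88.9% had a model that began within 100 nt of an annotated start, and 28.0% began at the same base. Among the members, models of ALDOC, TPI1, PGK1, PKM and LDHB began at exactly that base, and 8 of 10 genes had a model within 100 nt of it. For PKM this was model 1 only, and models 2 and 3 began 22 nt further upstream. The single models of GAPDH and PGAM1 began 747 and 1620 nt upstream of the only start listed for each in that table. Capitals mark the core of the hypoxia response element, ACGTG or GCGTG on either strand, the letters that hypoxia-inducible factor is known to bind in glycolysis promoters. Each run reads 5′ to 3′ on the gene's strand and ends at the base before the annotated start, or, for the LDHA upstream window, at the base before the first base of the model.
ALDOA upstream (chr16:30064029-30064278, + strand): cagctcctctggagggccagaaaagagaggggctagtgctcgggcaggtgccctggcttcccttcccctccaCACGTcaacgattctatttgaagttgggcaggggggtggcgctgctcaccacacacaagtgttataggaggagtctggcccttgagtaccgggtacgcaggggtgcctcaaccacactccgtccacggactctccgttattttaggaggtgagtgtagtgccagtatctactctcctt
ALDOA downstream (chr16:30065510-30065759, + strand): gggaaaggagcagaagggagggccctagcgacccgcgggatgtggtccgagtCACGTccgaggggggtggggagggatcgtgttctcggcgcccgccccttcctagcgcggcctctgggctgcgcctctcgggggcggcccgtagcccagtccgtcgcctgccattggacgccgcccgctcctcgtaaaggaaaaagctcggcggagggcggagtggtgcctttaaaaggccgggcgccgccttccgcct
LDHA upstream (chr11:18394313-18394536, + strand): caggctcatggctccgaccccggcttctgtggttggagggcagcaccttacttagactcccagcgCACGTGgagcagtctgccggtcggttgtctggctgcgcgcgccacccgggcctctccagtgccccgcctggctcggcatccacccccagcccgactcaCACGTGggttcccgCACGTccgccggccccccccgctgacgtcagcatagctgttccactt
LDHA downstream (chr11:18396101-18396350, + strand): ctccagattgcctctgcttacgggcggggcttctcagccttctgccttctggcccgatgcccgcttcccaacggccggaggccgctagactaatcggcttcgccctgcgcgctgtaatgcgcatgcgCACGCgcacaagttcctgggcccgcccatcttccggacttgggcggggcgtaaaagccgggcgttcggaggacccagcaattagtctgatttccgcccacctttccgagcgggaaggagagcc
ALDOC (chr17:28576896-28577145, - strand): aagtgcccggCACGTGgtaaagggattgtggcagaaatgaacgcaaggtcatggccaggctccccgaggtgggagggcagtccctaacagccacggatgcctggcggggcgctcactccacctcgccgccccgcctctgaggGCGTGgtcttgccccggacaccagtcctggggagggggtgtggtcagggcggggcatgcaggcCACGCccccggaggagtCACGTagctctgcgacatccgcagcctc
PGK1 (chrX:78103998-78104247, + strand): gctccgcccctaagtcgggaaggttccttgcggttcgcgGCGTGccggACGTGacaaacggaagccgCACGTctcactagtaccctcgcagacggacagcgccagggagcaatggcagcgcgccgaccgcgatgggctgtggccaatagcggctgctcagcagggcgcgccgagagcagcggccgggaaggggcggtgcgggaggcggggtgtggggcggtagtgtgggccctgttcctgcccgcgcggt

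The ALDOA and LDHA pairs show 2 starts per gene with unlike upstream sequence. ALDOA model 1 began 99 nt downstream of the annotated start that follows the first printed window and model 2 began 61 nt downstream of that of the second window, which lies inside the first intron of model 1. LDHA model 1 began at the base after its window, and model 2 began 5 nt downstream of the start that follows the second window, which again lies inside the first intron of model 1. The LDHA upstream window held 3 capital runs, including the palindrome CACGTG, and the downstream window held 1. For ALDOA each printed window held 1. A further annotated ALDOA start, at 30064497, lies within the first exon of model 1, 119 nt downstream of its first base, and its window held 2 matches. Both downstream windows held 4 matches to the GC box GGGCGG, searched on both strands, and both upstream windows held 0. ALDOC had 4 capital runs and PGK1 had 3, and both are shown for having the most beside LDHA. The windows of PKM and LDHB and that at the first base of the TPI1 model held 0 matches. The windows of GAPDH and PGAM1 and the further one of TPI1 precede annotated starts inside an intron of the gene's only model. Those starts lie 747, 1620 and 574 nt downstream of the model's first base, so these windows do not precede the models. They held 2, 0 and 2 matches, each held a GC box, and they are included in the totals that follow. Over all 14 member windows of 250 nt upstream of the start, 10 held at least 1 match to ACGTG or GCGTG, beside 43.2% of 35116 windows of the same length. A GC box was found in 11 of 14, beside 42.6% of all windows, and TATAAA on either strand in 1, that of LDHB, beside 10.7%. Only the exact letters TATAAA were counted, at any place in the window, and in LDHB they lie near its upstream end. The 35116 windows were not matched to those of the members in base composition. No share over windows of catalogue genes alone was computed, and the differences were not tested. The 14 windows overlap in part within ALDOA, and a match is a description of letters and not of binding.

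PKM, which encodes the pyruvate kinase of the final ATP-yielding step, had both mutually exclusive exons in the catalogue. Its models lie on the minus strand of chromosome 15 from 72199031 to 72231212 and each has 11 exons. Model 1 and model 2 held the M2 exon, from 72202454 to 72202620, as exon 9. Model 3 held the M1 exon, from 72203022 to 72203188, in the same place. M1 was called as the upstream and M2 as the downstream exon in the direction of transcription. No model held both exons and none lacked both, so M2 was in 2 models and M1 in 1; these count structures and say nothing of how much RNA carried either exon.

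The M1 and M2 exons were exactly interchangeable in length. Each is 167 nt, which is 55 codons and 2 nt, and the stretch between them is 401 nt. In models 2 and 3 the exon filled coding positions 1141 to 1307, beginning at codon 381 and ending within codon 436, and both coding regions ran from 72219097 down to 72199650 with 532 codons as deposited, the last codon included. Since 167 is not divisible by 3, a PKM model with both exons or neither would leave the frame of exon 10. The intron before the chosen exon measured 3539 nt for M1 and 4107 nt for M2, and the intron after it 2366 nt for M1 and 1798 nt for M2.

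**Figure D2:**
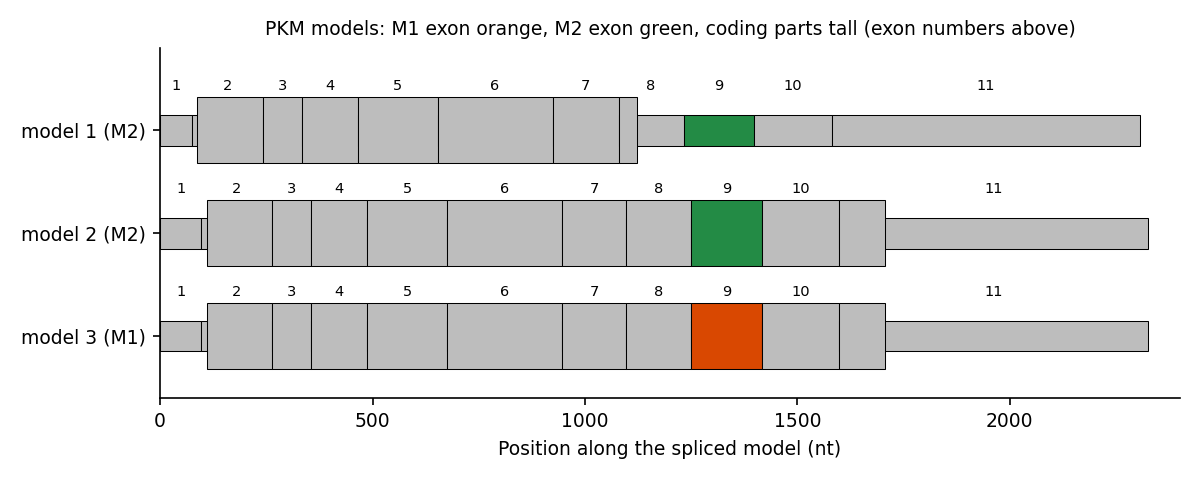
The 3 PKM models along the spliced RNA (x axis, nt from the first base), with exons numbered, coding parts as tall boxes and untranslated parts as low boxes. M2 (green) lies in the coding region of model 2 and behind the end of the coding region in model 1, and M1 (orange) takes the place of M2 in model 3.

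Pairs of this kind were uncommon in the catalogue. Of 4728 gene loci (gene, chromosome and strand) with at least 2 models, 66 (1.40%) held a pair of exons with the same neighbours that were in no model together, 72 pairs in all. PKM was 1 of 7 pairs of equal length, with P4HA1 (71 nt), TPM1 and TPM2 (76 nt each), FLOT2 (91 nt), RAB6A (106 nt) and ACP1 (114 nt). PKM had the longest exons of the 7. In 6 of the 7, all but ACP1, the shared length was not divisible by 3. The equal-length pairs other than PKM were named after their values were seen.

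**Figure D3:**
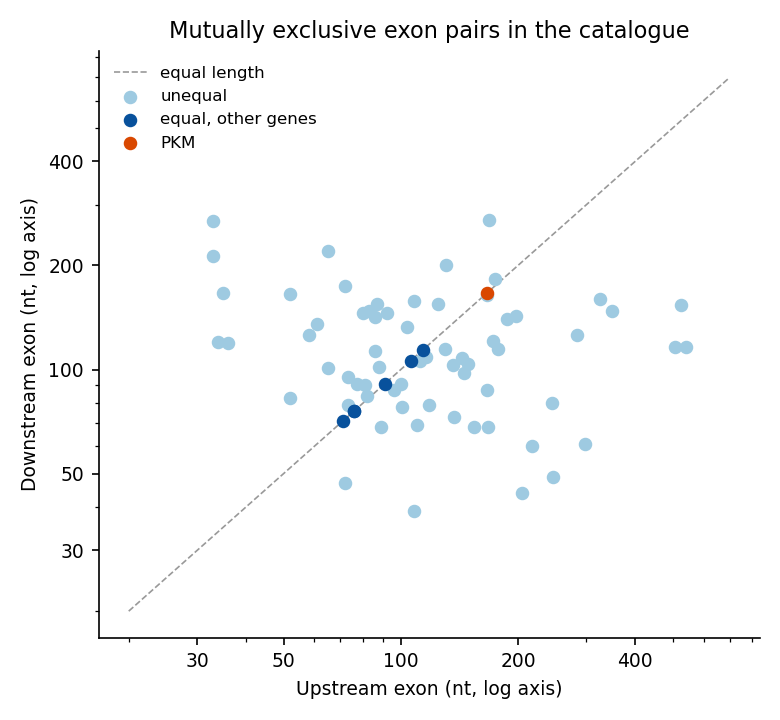
Length of the upstream (x axis) and downstream exon (y axis, both in nt on log axes) of the 72 mutually exclusive pairs. The 7 pairs of equal length lie on the dashed line, PKM (orange) highest at 167 nt, and the points of TPM1 and TPM2 coincide at 76 nt.

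PKM model 1 combined the M2 exon with a moved splice site that cut the coding region short. Its exon 7 runs from 72207123 to 72207277 and measures 155 nt, where models 2 and 3 have 151 nt from 72207127, so it uses a 5' splice site 4 nt further downstream. The 3 models share 987 coding nt, or 329 codons, up to that site. Behind it model 1 has 16 codons and ends in exon 8, whereas model 2 has 203. Model 1 thus held 345 codons against 532, and its M2 exon lay in the 3' untranslated region. Its coding region ended 458 nt upstream of the last exon junction, past the limit of 50 nt that marks a model as a decay candidate. Nonsense-mediated decay is the pathway that degrades RNA with an early stop. It was the only candidate among the 15 models, which put 1 in 1 of 10 member genes. In the catalogue 3.14% of the 17247 coding models were candidates, and 5.01% of the 8579 genes with a coding model had at least 1. The call is a rule on the structure, and decay was not measured.

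A shift of 4 nt was the most frequent one among alternative 5' splice sites. Of 1778 such pairs in the catalogue 67 (3.77%) were 4 nt apart, ahead of 26 pairs that were 9 nt apart. Alternative 5' splice sites were found in 25.2% of the loci with at least 2 models, and among the members in PKM alone, 1 of 4. Model 1 also began 22 nt downstream of the first base of models 2 and 3, within the same first exon, and all 3 ended at 72199031.

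The aldolase genes varied upstream of the coding region and not within it. ALDOA, the aldolase of muscle and most tissues, lies on the plus strand of chromosome 16 from 30064378 to 30070412. Its model 1 began with an exon of 128 nt and its model 2, 1443 nt further downstream, with an exon of 107 nt from 30065821 to 30065927. From the exon at 30067234 onwards the ALDOA models were the same, so the 5' untranslated region was 149 or 128 nt and the coding region, 365 codons from 30067255 to 30070212, was shared. ALDOC, the aldolase of brain, lies on the minus strand of chromosome 17 from 28573125 to 28576895. A cassette exon of 56 nt, from 28575965 to 28576020, was absent from model 1 and present in model 2, where it lengthened the 5' untranslated region from 107 to 163 nt. It lies upstream of the coding region of 365 codons, which begins at 28575532 in both.

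LDHA, which favours lactate production, differed in its coding region as well. Its models lie on the plus strand of chromosome 11 and began at 18394537 and at 18396356, 1819 nt apart, with first exons of 100 and 255 nt. The other 7 exons were shared, and both coding regions ended at 18407281. The coding region of model 2 began inside its own first exon, at 18396548, and added 63 nt there and 24 nt of the shared second exon. The 87 nt added equal 29 codons in frame with model 1, which gave 362 codons against 333. Whether the upstream start is used in the cells cannot be told from the models.

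The kinds of difference within the 4 genes with several models were set against the catalogue. Alternative first exons were present in ALDOA and LDHA, 2 of 4, against 18.0% of loci with at least 2 models. ALDOC had the only cassette exon, 1 of 4, against 49.4%. Retained introns (17.3% of loci), alternative 3' splice sites (23.4%) and alternative last exons (27.0%) were found in 0 of 4. Of 744 loci with alternative first exons and at least 2 coding models, 25.5% had 1 coding region, as ALDOA did. Of 3571 cassette exons, 16.9% lay upstream of the coding region in each coding model that holds them, as in ALDOC. At least 2 coding regions were given for PKM and LDHA, 2 of 4, against 84.4% of the 4072 genes with at least 2 coding models. With 4 genes these shares are counts only.

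The 3' ends did not vary within a gene. ALDOA, ALDOC, PKM and LDHA each had models behind 1 shared stop, and the largest difference in 3' untranslated length among these was 0 nt. A difference of at least 100 nt was found in 19.2% of 3228 such genes and no difference in 33.3%. Between genes the range was wide: 200 nt in ALDOA and LDHB, 201 nt in GAPDH, 357 nt in ENO1, 401 nt in ALDOC, 559 nt in TPI1, 566 nt in LDHA, 619 nt in PKM models 2 and 3, 917 nt in PGAM1 and 1117 nt in PGK1, beside 1184 nt in PKM model 1 with its early stop. The catalogue's median was 429 nt. The 5' untranslated regions were shorter than its median of 147 nt in all models except ALDOA model 1 (149 nt), ALDOC model 2 (163 nt) and LDHA model 2 (192 nt), and TPI1 had the shortest with 36 nt.

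Coding exon lengths were equal throughout between ALDOA and ALDOC, among the enolases and between LDHA and LDHC, and in part between LDHA and LDHB. ALDOA and ALDOC each have 8 coding exons, of 112, 212, 55, 161, 84, 175, 200 and 96 nt, equal in all 8. ENO1, the enolase of most tissues, has 11 coding exons of 85, 96, 59, 70, 134, 223, 198, 202, 109, 59 and 70 nt, and the neuronal ENO2 and the muscle ENO3 had a model equal in all 11, each with 435 codons. LDHA model 1 and LDHB each have 7 coding exons, of which the inner 5 are equal at 118, 174, 174, 118 and 124 nt. The first measures 126 nt in LDHA and 129 nt in LDHB and the last 165 and 168 nt, so LDHB has 335 codons against 333. The testis gene LDHC had a model equal to LDHA in all 7.

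PGAM1 differed from its muscle paralogue PGAM2 by an intron. PGAM1 has 4 coding exons of 139, 275, 181 and 170 nt, and PGAM2 has 3 of 414, 181 and 167 nt. The first pair of PGAM1 adds up to 414 nt, the length of the PGAM2 exon. Over the catalogue, 123 of 5092 genes (2.42%) with a model of at least 6 coding exons had the same series of coding exon lengths as another gene. ALDOA, ALDOC, ENO1 and LDHA were 4 of the 9 members tested. ALDOA and ALDOC match each other and are counted separately. The member list holds paralogues by its choice of genes, so its count and the 2.42% are not like for like. Paralogues of the members were looked for by name, and GAPDHS, PGK2, PGAM4 and PKLR, which had no model, could not be compared.

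**Figure D4:**
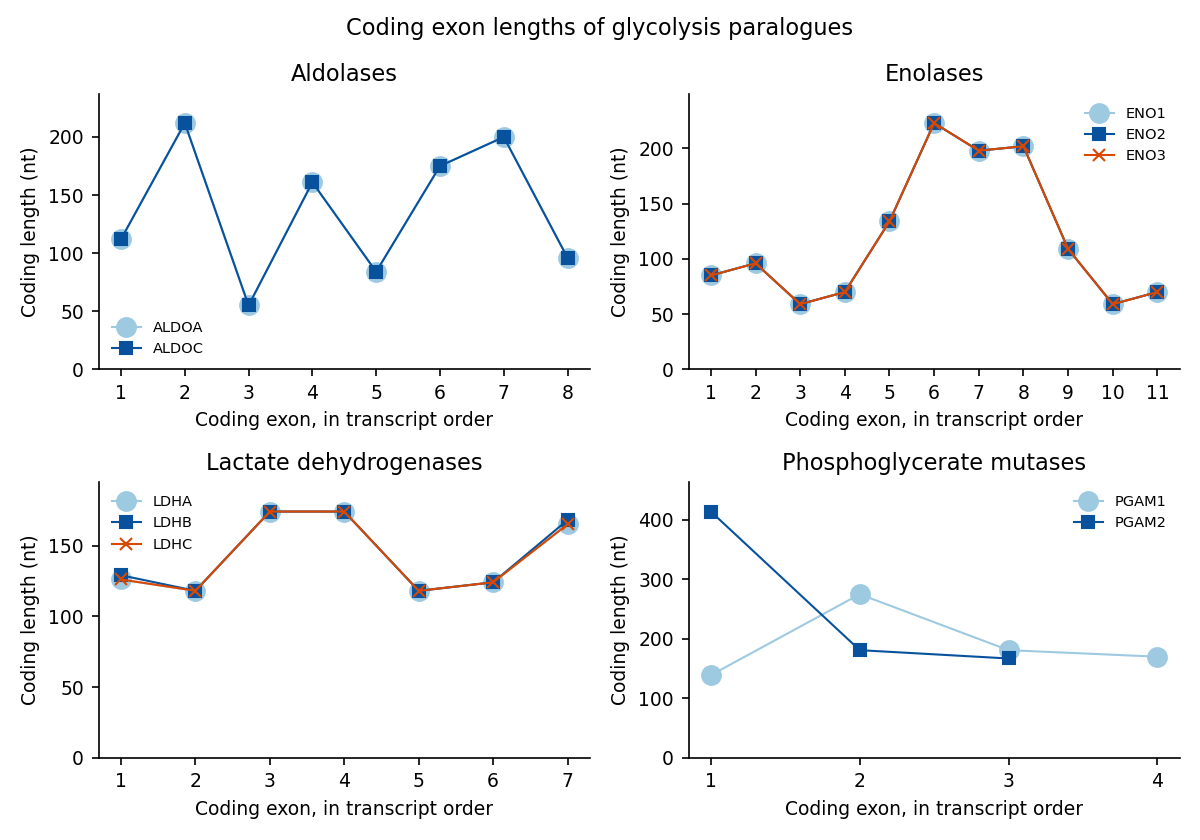
Coding length in nt (y axis) of each coding exon in transcript order (x axis) for 1 model per gene. The points of ALDOA and ALDOC and of ENO1, ENO2 and ENO3 coincide, LDHB is 3 nt above LDHA and LDHC at both ends, and the first PGAM2 exon of 414 nt stands in place of the first pair of PGAM1.

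Short introns were found mainly in ALDOA, ALDOC, TPI1 and GAPDH. The median intron of each of these genes was between 116.5 and 201.5 nt, against 1067 to 2790 nt in the other members. The members had 85 distinct introns with a median of 780 nt, against 1601 nt over 73516 introns, and 19 of the 85 (22.4%) were under 150 nt, against 9.59%. Those 19 were in ALDOC (6), GAPDH (5), ALDOA (4), TPI1 (3) and PGK1 (1). The shortest, 74 nt, was in TPI1, which spans 3412 nt on chromosome 12 from 6867531 to 6870942. GAPDH, which yields NADH at the oxidation step, spans 3855 nt on the same chromosome from 6534517 to 6538371, with introns of 90 to 1632 nt. PKM had the longest intron, 12005 nt before exon 2, and LDHB had none under 1158 nt.

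Span varied more than the spliced RNA. Exons made up 44.0% of the span of ALDOC model 2 and 39.4% of that of TPI1, but 7.22% in PKM model 2 and 5.79% in LDHB. LDHB, the heart-type subunit, lies on chromosome 12 from 21635342 to 21657842, with 8 exons and 1303 nt of spliced RNA. PGK1, which makes the earlier ATP, lies on chromosome X from 78104248 to 78126947 and has 418 codons. ENO1 lies on chromosome 1 from 8861003 to 8878712 and PGAM1 on chromosome 10 from 97426198 to 97433441. In 11 of the 15 models (73.3%) the first intron was the longest, against 39.4% of 18258 catalogue models with at least 2 introns. Models of 1 gene are not independent, and the 3 PKM models share their first intron. By gene, it held in every model of 7 of 10. The 39.4% counts models, and no share by gene was computed for the catalogue. The exceptions were GAPDH, LDHB and both LDHA models. At its 3' end TPI1 overlapped the last bases of SPSB2 on the opposite strand by 6 nt, and no model of another gene shared an exon base with a member on the same strand.

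**Figure D5:**
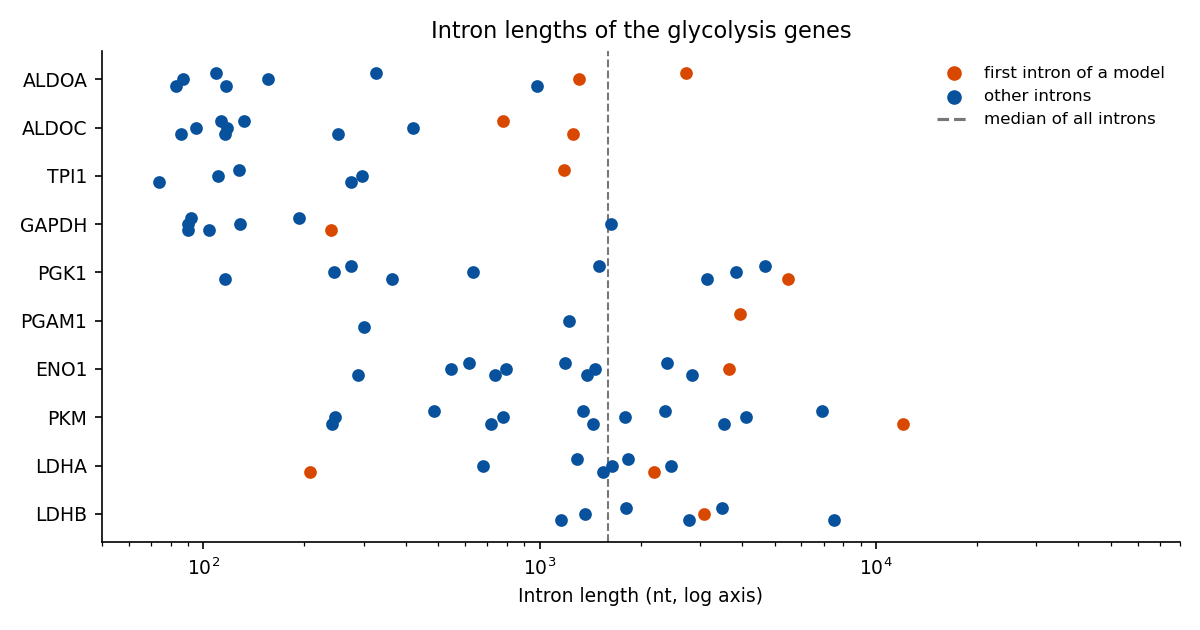
Length of each distinct intron (x axis, nt on a log axis) of the 10 genes (y axis; vertical offsets only separate points). Introns that come first in a model are orange, and the dashed line is the catalogue's median of 1601 nt; ALDOC, TPI1 and most of GAPDH and ALDOA lie left of it.

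Other genes of the pathway were looked up in a list of 41. Of these 24 had a model, and 13 of the 24 had at least 2, near the 50.01% of all genes. The most models were found for ENO3 and for SLC2A3, a glucose transporter gene, with 4 each, then ADPGK, an ADP-dependent glucokinase gene, LDHC, the pyruvate dehydrogenase complex genes PDHA1 and PDHX, and PDK3, a pyruvate dehydrogenase kinase gene, with 3 each. HK1 and the phosphofructokinase genes PFKL, PFKM and PFKP had 1 each, and GPI, which encodes the glucose-6-phosphate isomerase, had 2. The 17 without a model line included HK2, PFKFB1, PFKFB2, PFKFB3, PFKFB4, PDK1 and PDK4. ENO3 was the only gene of the list with a candidate for decay, 1 of 24, against 5.01% of all genes with a coding model. All 7 regulators known to act on the PKM exon choice had at least 2 models: RBM4 had 5, HNRNPA1 4, NEK2 3, and PTBP1, PTBP2, HNRNPA2B1 and SRSF3 2 each. The catalogue's share of 50.01% stands beside this count, which was not tested.

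The catalogue was also searched for defining genes of the cell types in the labels and of other types. Of 5 ESC markers 4 had a model (POU5F1, NANOG, DNMT3B and TDGF1, but not LIN28A), as did 4 of 5 NPC markers (PAX6, OTX2, NES and FABP7, but not SOX1) and 4 of 4 markers of neurons, which no sample is labelled as. Mesoderm and endoderm (0 of 4), liver (0 of 2) and erythroid markers (0 of 2) had none, and of 3 muscle genes ACTA1 had 1 model. The models carry no sample, so the cells they came from cannot be told, presence of a model is not a level, and a gene without one is not shown to be silent.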

How the data were processed

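The data are positions, in nt counted from 1, of transcripts, exons and coding regions in the authors' deposited set of models, which names PacBio on each line. Per the labels' protocols, R2C2 (a long-read cDNA method) was used for the long-read libraries. Salmon 1.9.0 and STAR 2.7.8a are listed in the submitters' processing notes, with no role stated. How the models and coding regions were called and filtered, and on which build, is not stated in these sources. The file used here gives no depth or value per library, so depth is unknown here and no test was run.

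Models were read with Python 3.11.15 and grouped by gene, chromosome and strand. A cassette exon is internal and skipped directly in another model. Mutually exclusive exons share both neighbouring splice sites and are in no model together. Alternative splice sites share the intron's other end and have overlapping exons, and alternative first or last exons do not overlap. A decay candidate has its stop over 50 nt before the last junction. Paralogues were compared by the pair of models with the most equal coding exons. Event rules were checked on simulated models. All members are named, with listed pathway genes by number of models. Members and lists were chosen with earlier results of these data known.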

Additional observations from a re-analysis of the deposited data

How the results depend on the processing

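Of 14 alternatives 12 left their count within 1.5 times. These were the count of models with overlapping genes added (15), in coding models (15) or as distinct coding regions (13), genes with several models or coding regions in coding models (4) or without regions within 2 nt of a model's end (2), events in coding models (5), decay candidates at 55 nt or any distance (1 each), PKM exons called by overlap (M1 in 1, M2 in 2) and 3' differences of 50 or 200 nt (0 each). Several of these could not change. All 15 models were coding, the largest 3' difference was 0 nt, and the only early stop lay 458 nt before the last junction. Their unchanged counts are therefore no sign of robustness. With at least 3 models required, 1 gene was left in place of 4, PKM. When both forms had to occur in 2 or more models, 0 splicing differences were left in place of 5; genes with 2 or 3 models cannot meet this. The planned comparison with RefSeq protein lengths was not run, since the reference tables used here hold no protein sequences. Each form therefore rests on 1 or 2 structures of unknown read support. No paired analysis was possible because the models carry no value per library and no test was made.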
